A study of Ambystoma mexicanum with 12 samples.

Results

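Levels of 8 genes of heme breakdown and iron handling were followed in axolotl spinal cord: HMOX1, BLVRA, BLVRB, FTH1, TFRC, SLC40A1, SLC11A1 and TF. They were taken by symbol from a table of 15091 gene symbols, and all 8 passed the filter on low values. RNA sequencing covered 12 libraries in 4 groups of 3. The 4 dpi inhibitor cords (4 days post injury) had been injected in the central canal with a miR-200a inhibitor, and a piece of cord had then been removed. The 4 dpi control cords had the same surgery with a control inhibitor. The authors report that both injured groups were electroporated with their inhibitor when injured and again before collection. The uninjured inhibitor cords received the miR-200a inhibitor without a lesion, and the uninjured cords had neither a lesion nor a stated injection. Uninjured libraries 1 and 5 are labelled as controls, and the uninjured library without a number is not. No transgene or mutation is named for any group. Tissue of several axolotls was pooled for each library. The labels give a body length and no age, and do not say that the libraries of a group were made on separate occasions, so p-values measure only the spread between these libraries.

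Heme is released when hemoglobin and other heme proteins are degraded. Heme oxygenase opens the ring and yields iron, carbon monoxide and biliverdin, which biliverdin reductases turn into bilirubin. The iron is stored in ferritin, moved out of phagocytic vesicles, exported through ferroportin or carried in the blood by transferrin, which cells take up through the transferrin receptor. In the injured mammalian cord, macrophages that clear red cells and myelin are a known site of heme breakdown. In mammals, iron regulatory proteins bind the transcripts of ferritin, ferroportin and the transferrin receptor, and they protect the transcript of the receptor from decay when iron is short.

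Levels are in TPM, a share of all transcripts that is corrected for transcript length and sums to the same total in every library, so the depth of each library is unknown. The symbols are human: the authors assigned assembled axolotl transcripts to the best matching human protein, so axolotl paralogs that match 1 human gene share a value. The value of FTH1 covers matches to 7 human transcripts, that of SLC11A1 covers 2, and each of the others covers 1. The axolotl RefSeq annotation (assembly UKY_AmexF1_1) holds a gene of the same symbol for 6 of the 8, and SLC40A1 and TF were not matched by symbol. A change is a limma adjusted p under 0.05, Benjamini-Hochberg over 13824 genes, on the log2(TPM + 0.1) scale, which understates changes of low genes. In whole cords, fewer cells of a type and less RNA per cell cannot be told apart.

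Neuron, myelin and ependymoglia markers were found in every library, though MOG (myelin) was at 0 in 3 and ELAVL3 (neurons) in 1, and skeletal muscle markers summed to between 2914 and 36164 TPM. Both libraries numbered 1 (in the 4 dpi control and the uninjured group) stood apart: their genes lay a median of 0.36 and 0.39 log2 units above their group means, and their 50 most abundant genes took 17.3% to 19.5% of the TPM, against 22.3% to 32.9% in the other 10. All genes tested were displaced in some comparisons. The median log2 fold change was -0.08 for 4 dpi control against uninjured and -0.81 for 4 dpi inhibitor against uninjured. It was -0.69 for 4 dpi inhibitor against 4 dpi control, -1.10 for uninjured inhibitor against uninjured and 0.28 for 4 dpi inhibitor against uninjured inhibitor. Under median-of-ratios scaling these medians lay between -0.17 and 0.01. Changes of the members are therefore also given relative to the median of their comparison. The comparisons share groups: 3 of them share the uninjured libraries and 3 share the 4 dpi inhibitor libraries.

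The members differed widely in level and in how far they moved. FTH1, the heavy chain of ferritin that oxidizes and stores iron, was the most abundant, with a mean of 1073 TPM that ranked 145 among the 15091 symbols. TF (transferrin) followed with a mean of 254 TPM, then BLVRB with 141 TPM and HMOX1 with 60.9 TPM. BLVRA averaged 34.1 TPM, SLC40A1 15.6 TPM, SLC11A1 13.7 TPM and TFRC 8.28 TPM. The highest library exceeded the lowest by 1.84-fold for BLVRA and 2.02-fold for FTH1, but by 50.7-fold for TFRC and 108-fold for SLC40A1. Of the 48 tests of a member in a comparison, the interaction of injury and inhibitor included, 7 passed: HMOX1 in 3 comparisons, TFRC in 2, and FTH1 and SLC40A1 in 1 each. The share of all genes called differed widely between comparisons. It was 7.39% higher and 51.1% lower in uninjured inhibitor against uninjured cords. For 4 dpi inhibitor against uninjured cords it was 9.39% and 31.2%, and for 4 dpi control against uninjured cords 0.861% and 0.0434%. Only 0.0434% of all genes passed the interaction.

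**Figure D1:**
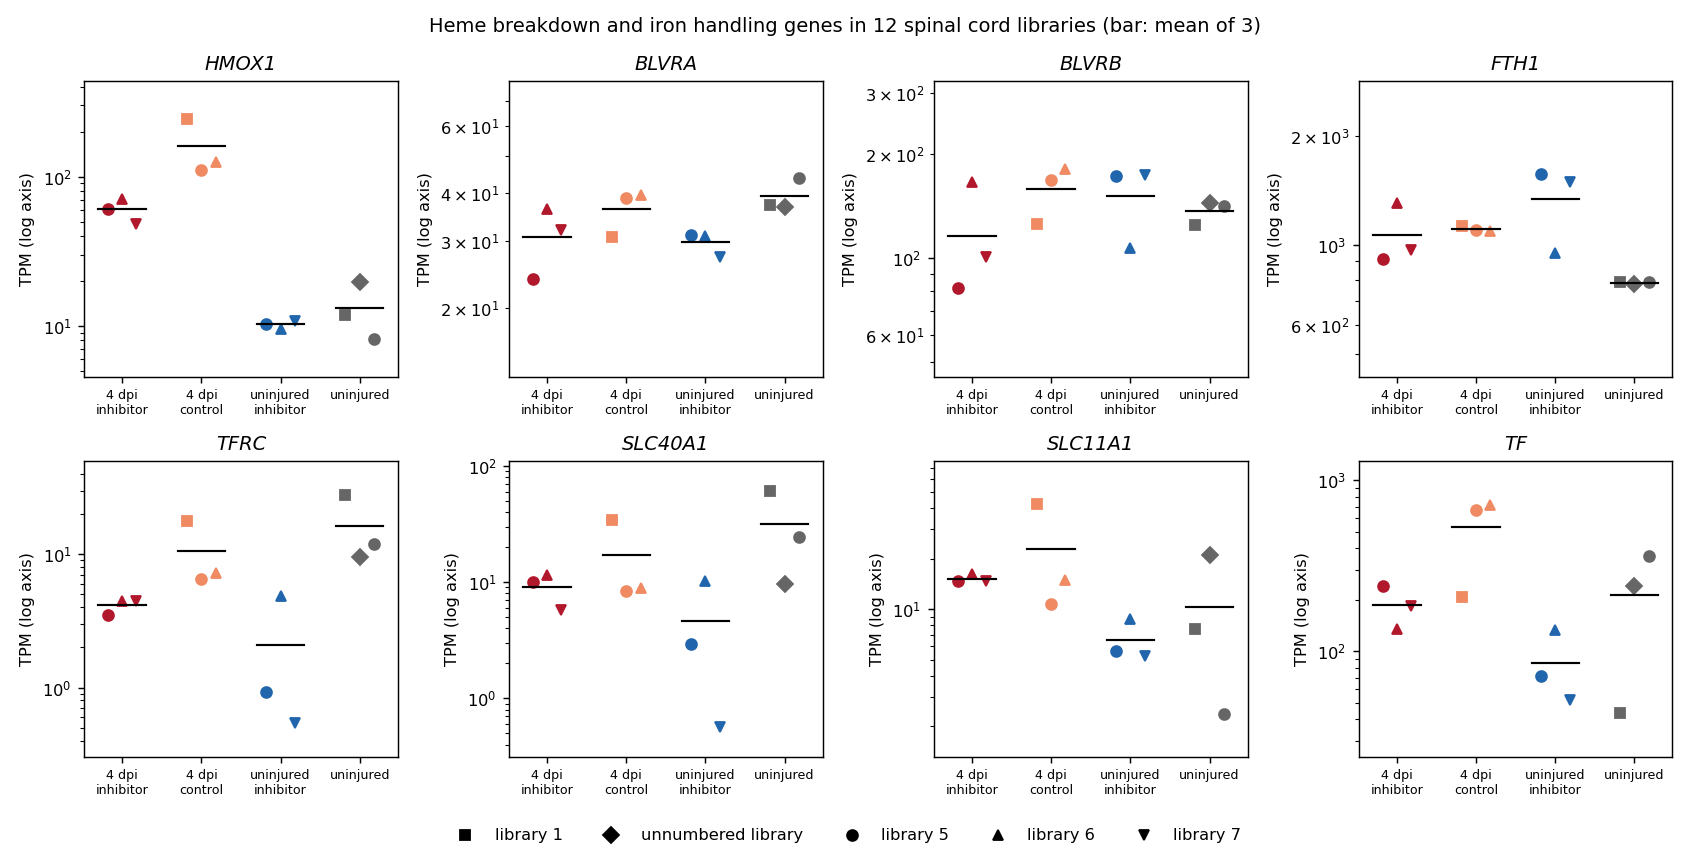
Level of each gene in TPM (log axis, with its own range in each panel) in 12 libraries by group, each point 1 library and each bar the mean of 3. HMOX1 in both injured groups lies above both uninjured groups, and TFRC and SLC40A1 are lowest in the uninjured inhibitor libraries 5 and 7.

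HMOX1 (heme oxygenase 1, the inducible enzyme that opens the heme ring) was the member that rose with injury. Its levels were 61.0, 71.3 and 48.5 TPM in 4 dpi inhibitor cords, 243, 111 and 126 TPM in 4 dpi control cords, 10.3, 9.496 and 10.8 TPM in uninjured inhibitor cords, and 11.8, 19.7 and 8.21 TPM in uninjured cords. Every injured library was above every uninjured one, and every 4 dpi inhibitor library was below every 4 dpi control library. Of all genes, 7.85% were separated upward in 4 dpi control and 12.6% in 4 dpi inhibitor against uninjured cords. The share was 29.6% in 4 dpi inhibitor against uninjured inhibitor cords. Between the injured groups 49% of all genes were separated downward. The HMOX1 means were 60.2 ± 11.4 TPM in 4 dpi inhibitor cords, 160 ± 72.4 TPM in 4 dpi control cords, 10.2 ± 0.647 TPM in uninjured inhibitor cords and 13.2 ± 5.86 TPM in uninjured cords (SD, n = 3 each).

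In 4 dpi control against uninjured cords HMOX1 was 12.1-fold higher by the means (log2 fold change 3.59, SE 0.35, limma adjusted p = 0.00025). Relative to the median of all genes the difference was 3.67. Leaving out any 1 library kept the log2 fold change between 3.24 and 3.92 and the adjusted p at or under 0.00175. It was the only member called higher or lower in this comparison, in which 0.861% of all genes were called higher and 0.0434% lower. Fitted on these 2 groups alone, its adjusted p was 0.0531, and 6 genes of all tested passed in that fit.

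In 4 dpi inhibitor against uninjured cords HMOX1 was 4.55-fold higher (log2 fold change 2.25, SE 0.35, limma adjusted p = 0.00173, 3.06 relative to the median). Against uninjured inhibitor cords it was 5.91-fold higher (2.54, SE 0.35, limma adjusted p = 0.00983, 2.26 relative to the median), where 0.579% of all genes were called higher. That call was lost without any 1 of the 4 dpi inhibitor libraries and without uninjured inhibitor library 5 or 7, with an adjusted p of up to 0.0812, while the log2 fold change stayed between 2.41 and 2.68. Leaving out 1 library at a time did not end the first of these calls, whose adjusted p reached at most 0.0115.

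Between the injured groups HMOX1 did not pass: the log2 fold change for 4 dpi inhibitor against 4 dpi control was -1.33 (SE 0.35, 95% interval -2.09 to -0.58, limma adjusted p = 0.0528). Relative to the median it was -0.64, and under median-of-ratios scaling it was -0.70 with an adjusted p of 0.308. Without 4 dpi control library 1, the highest of all, it was -0.99 (adjusted p = 0.21). It passed without 4 dpi control library 5 (-1.55, adjusted p = 0.0392). With the log2 fold change unchanged at -1.33, it also passed without uninjured library 1 or the unnumbered one (adjusted p = 0.0306 and 0.0337). The test of whether injury acted differently with the inhibitor gave -1.05 (SE 0.49, adjusted p = 0.587). Uninjured inhibitor against uninjured cords gave -0.28 with an adjusted p of 0.495, and 0.66 under median-of-ratios scaling (adjusted p = 0.146).

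The first 3 genes by likeness to HMOX1 were HGF, CLEC4G and CD68, measured as the root mean square difference of centred log2 levels over 12 libraries among the 9749 genes that averaged 5 TPM or more. The differences were 0.55 for HGF (hepatocyte growth factor), 0.63 for CLEC4G (a C-type lectin) and 0.68 for CD68 (a lysosomal protein of macrophages), against a spread of HMOX1 about its own mean of 1.65. CD68 averaged 23.3 TPM in 4 dpi inhibitor cords, 37.0 TPM in 4 dpi control cords, 5.19 TPM in uninjured inhibitor cords and 5.82 TPM in uninjured cords. As these 3 genes were picked for like levels over the same 12 libraries, their likeness in group means follows from that choice. CD68 is also in the list of macrophage markers used below.

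Macrophage markers rose in the comparisons in which HMOX1 rose, and also in uninjured inhibitor against uninjured cords, where HMOX1 was not called. The 17 microglia and macrophage markers summed to 1894 to 2616 TPM in 4 dpi inhibitor cords, 1993 to 2219 TPM in 4 dpi control cords, 1071 to 1251 TPM in uninjured inhibitor cords and 517 to 718 TPM in uninjured cords. CTSB made up much of these sums, with 909 to 1336 TPM in 4 dpi inhibitor and 1125 to 1387 TPM in 4 dpi control cords. It had 536 to 586 TPM in uninjured inhibitor and 408 to 439 TPM in uninjured cords. Of 16 tested, 14 were called higher in 4 dpi inhibitor against uninjured cords, beside 9.39% of all genes. In 4 dpi control against uninjured cords 11 were called higher, beside 0.861%. The counts were 8 in uninjured inhibitor against uninjured cords (7.39%) and 5 in 4 dpi inhibitor against uninjured inhibitor cords (0.579%). None was called lower, and ITGAM was at 0 in 3 libraries. Between 4 dpi inhibitor and 4 dpi control cords the single markers differed in direction. There 6 of the 16 had a log2 fold change above 0 and 10 below 0. Of these 1 was called higher, beside 3.82% of all genes in either direction, and 0 under median-of-ratios scaling. The median of the 16 was -0.11, beside -0.69 for all genes. Under median-of-ratios scaling it was 0.53, beside -0.07 for all genes. HMOX1 per 100 TPM of these markers was 2.45 to 3.22 in 4 dpi inhibitor, 4.99 to 11.01 in 4 dpi control, 0.826 to 0.886 in uninjured inhibitor and 1.18 to 3.81 in uninjured cords. The 4 dpi control libraries thus stood above the others in this ratio, the 4 dpi inhibitor libraries overlapped with the uninjured ones, and the uninjured inhibitor libraries lay below both.

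Granulocyte markers (8 of 9 in the table) summed to 1794 to 2155 TPM in 4 dpi inhibitor cords, 872 to 1020 TPM in 4 dpi control cords, 654 to 770 TPM in uninjured inhibitor cords and 92.1 to 111 TPM in uninjured cords. CXCR2 was at 0 in 9 libraries. LYZ made up most of these sums, with a mean of 1753 TPM in 4 dpi inhibitor and 859 TPM in 4 dpi control cords. Of 7 tested, 3 were called higher in 4 dpi control against uninjured cords, beside 0.861% of all genes. In 4 dpi inhibitor against uninjured cords 5 were called higher and 1 lower, beside 9.39% and 31.2%. In uninjured inhibitor against uninjured cords 3 were called higher and 0 lower, beside 7.39% and 51.1%. For 4 dpi inhibitor against uninjured inhibitor cords 2 were called higher, beside 0.579%. Between 4 dpi inhibitor and 4 dpi control cords 1 was called higher, beside 3.82% of all genes in either direction, and 0 under median-of-ratios scaling. Red cell markers (11 of 17 in the table) summed to 1429 to 4457 TPM in 4 dpi inhibitor cords, 1637 to 2821 TPM in 4 dpi control cords, 1038 to 2049 TPM in uninjured inhibitor cords and 565 to 1169 TPM in uninjured cords. HBB was at 0 in 11 libraries and GATA1 in 6, while HBA2 was present in all. Of 8 tested, 4 were called higher in 4 dpi inhibitor against uninjured cords, beside 9.39% of all genes. In uninjured inhibitor against uninjured cords 2 were called higher and 3 lower, beside 7.39% and 51.1%. None was called higher in 4 dpi control against uninjured (0.861%) or in 4 dpi inhibitor against uninjured inhibitor cords (0.579%). In that order, 6 and 5 were higher there at an unadjusted p under 0.05 in limma. The part of these cells in the levels of the members was not tested.

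**Figure D2:**
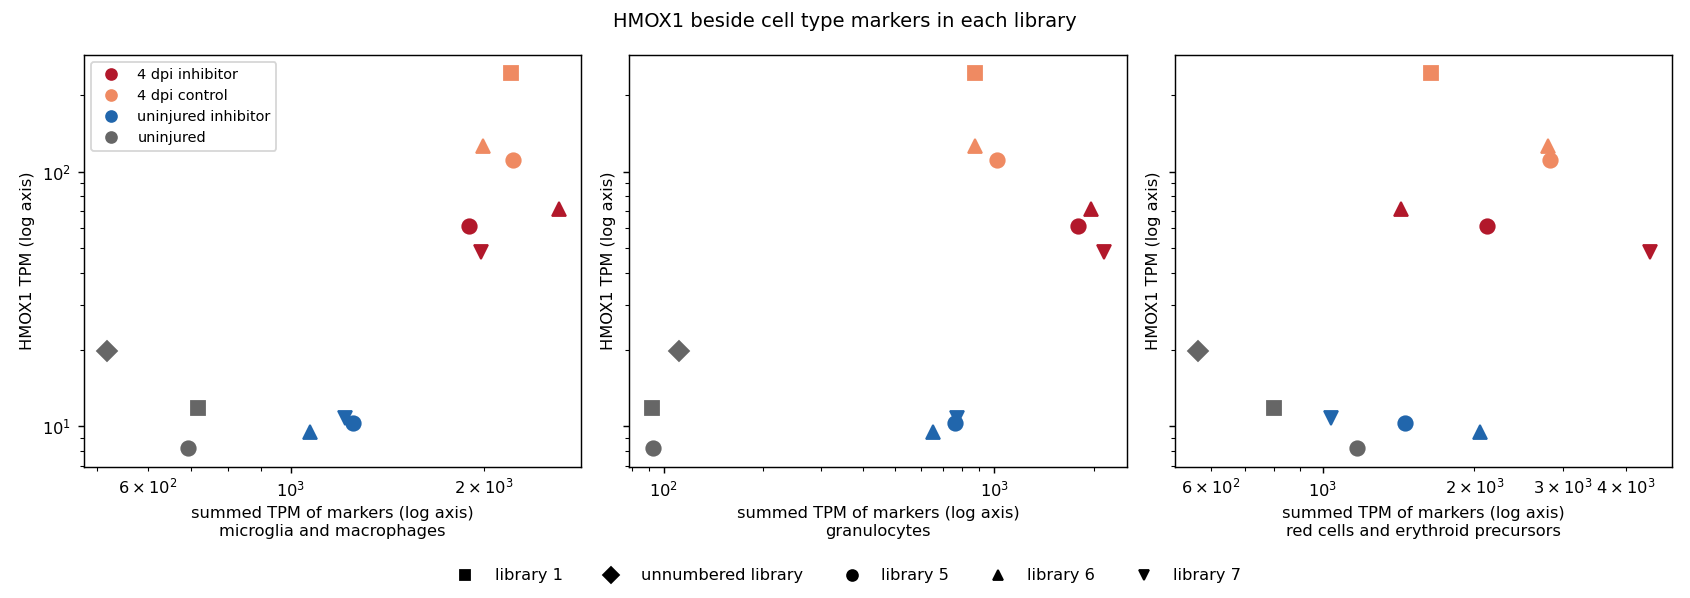
HMOX1 in TPM against the summed TPM of markers of macrophages, granulocytes and red cells, both axes log, each point 1 library coloured by group and shaped by library number. The macrophage marker sums of both injured groups overlapped, and CTSB was a large part of them. HMOX1 was 48.5 to 71.3 TPM in 4 dpi inhibitor libraries. It was 111 to 243 TPM in 4 dpi control libraries.

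The enzymes of the next step did not follow HMOX1. BLVRA (biliverdin reductase A) had 23.8, 36.4 and 32.1 TPM in 4 dpi inhibitor cords, 30.8, 38.8 and 39.5 TPM in 4 dpi control cords, 31.1, 31.0 and 27.3 TPM in uninjured inhibitor cords, and 37.2, 36.9 and 43.7 TPM in uninjured cords. Libraries of both inhibitor groups lay below all uninjured ones. This separation was shown by 41.8% of all genes for 4 dpi inhibitor and 50.8% for uninjured inhibitor cords. No comparison passed: the log2 fold change was -0.37 for 4 dpi inhibitor against uninjured (limma adjusted p = 0.188) and -0.40 for uninjured inhibitor against uninjured (limma adjusted p = 0.137). Relative to the median they were 0.44 and 0.70, so the sign depends on the scaling.

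BLVRB (biliverdin reductase B, also a flavin reductase, abundant in mammalian red cells) had 81.6, 166 and 101 TPM in 4 dpi inhibitor cords, 125, 169 and 181 TPM in 4 dpi control cords, 173, 107 and 174 TPM in uninjured inhibitor cords, and 125, 144 and 141 TPM in uninjured cords. The groups overlapped in each comparison with the uninjured cords and no comparison passed. Its log2 fold change in uninjured inhibitor against uninjured cords was 0.11 (adjusted p = 0.734), and 1.06 under median-of-ratios scaling (limma adjusted p = 0.0445). HMOX2, the constitutive heme oxygenase, was 17.5 to 28.5 TPM in 4 dpi inhibitor cords, 23.4 to 27.6 TPM in 4 dpi control cords, 16.9 to 21.2 TPM in uninjured inhibitor cords and 14.8 to 24.4 TPM in uninjured cords, with no call in any comparison.

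The ratio of HMOX1 to BLVRA within a library, each as TPM + 0.1, hardly depends on how the library is scaled. It was 2.55, 1.96 and 1.51 in 4 dpi inhibitor cords, 7.86, 2.84 and 3.19 in 4 dpi control cords, 0.335, 0.308 and 0.397 in uninjured inhibitor cords, and 0.319, 0.535 and 0.190 in uninjured cords. HMOX1 thus exceeded BLVRA in all 6 injured libraries and was below it in all 6 uninjured ones. The ratio was 13.01-fold higher in 4 dpi control and 6.16-fold higher in 4 dpi inhibitor than in uninjured cords, and 5.69-fold higher in 4 dpi inhibitor than in uninjured inhibitor cords. It was 2.11-fold lower in 4 dpi inhibitor than in 4 dpi control cords, again without overlap. Each of these 4 gave p = 0.1 in an exact permutation test (two-sided), the smallest p that 3 libraries against 3 allow, and 0.143 after adjustment over the 10 ratio comparisons. Uninjured inhibitor against uninjured cords gave a 1.08-fold difference (exact p = 0.8).

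FTH1 (ferritin heavy chain) was above the uninjured level in all 3 of the other groups. It had 914, 1308 and 966 TPM in 4 dpi inhibitor cords, 1125, 1098 and 1089 TPM in 4 dpi control cords, 1574, 951 and 1495 TPM in uninjured inhibitor cords, and 788, 779 and 788 TPM in uninjured cords. No library of the other groups reached down to the uninjured ones. Such an upward separation was shown by 12.6% of all genes in 4 dpi inhibitor, 7.85% in 4 dpi control and 8.93% in uninjured inhibitor cords. FTH1 rose in uninjured inhibitor against uninjured cords (1.71-fold, log2 fold change 0.74, SE 0.21, limma adjusted p = 0.0114, 1.83 relative to the median). In that comparison 7.39% of all genes were called higher and 51.1% lower. Without uninjured inhibitor library 5 the adjusted p was 0.0556.

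With injury FTH1 had a log2 fold change of 0.49 in 4 dpi control against uninjured cords (SE 0.21, 95% interval 0.04 to 0.94, limma adjusted p = 0.442). For 4 dpi inhibitor against uninjured cords it was 0.42 (limma adjusted p = 0.12), 1.23 relative to the median, and under median-of-ratios scaling it was 1.097 with an adjusted p of 0.0237. The injured groups did not separate (-0.07, 95% interval -0.53 to 0.38). The interaction was -0.81 (SE 0.30, unadjusted p = 0.0172, limma adjusted p = 0.587). The other ferritin symbols were low: FTL, the light chain in human, was listed at 0 in 10 of the 12 libraries and the mitochondrial FTMT in 7.

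TFRC (transferrin receptor, the entry route of transferrin iron) went the other way. It had 3.49, 4.47 and 4.44 TPM in 4 dpi inhibitor cords, 17.7, 6.52 and 7.25 TPM in 4 dpi control cords, 0.926, 4.83 and 0.545 TPM in uninjured inhibitor cords, and 27.6, 9.58 and 11.96 TPM in uninjured cords. All libraries of both inhibitor groups lay below all uninjured and all 4 dpi control libraries. Many genes were separated downward in this way. They were 50.8% of all genes in uninjured inhibitor against uninjured cords and 41.8% in 4 dpi inhibitor against uninjured cords. Between 4 dpi inhibitor and 4 dpi control cords they were 49%. TFRC fell in uninjured inhibitor against uninjured cords (7.80-fold lower by the means, log2 fold change -3.32, SE 0.67, limma adjusted p = 0.003, -2.22 relative to the median). Leaving out any 1 library kept this call, with an adjusted p of at most 0.015, and the adjusted p under median-of-ratios scaling was 0.00809.

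TFRC also fell in 4 dpi inhibitor against uninjured cords, by a log2 fold change of -1.81 (3.96-fold lower by the means, SE 0.67, limma adjusted p = 0.0479), -1.01 relative to the median. HMOX1 was the only member called higher in this comparison and TFRC the only one called lower, beside 9.39% and 31.2% of all genes. The TFRC call did not hold under median-of-ratios scaling (-1.14, adjusted p = 0.148). Without uninjured library 1 the log2 fold change was -1.36 (adjusted p = 0.167). The call was also lost without any 1 of 7 other libraries: the 3 of the 4 dpi inhibitor group, 4 dpi control 5 or 6, uninjured inhibitor 5 and uninjured 5.

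The other TFRC comparisons did not pass. The log2 fold change was -0.63 for 4 dpi control against uninjured (95% interval -2.10 to 0.83, limma adjusted p = 0.756), and -1.18 for 4 dpi inhibitor against 4 dpi control (limma adjusted p = 0.22) with no overlap of libraries. It was 1.504 for 4 dpi inhibitor against uninjured inhibitor (limma adjusted p = 0.229), and the interaction was 2.14 (unadjusted p = 0.0439, limma adjusted p = 0.587). Without uninjured inhibitor library 6, the difference of 4 dpi inhibitor from uninjured inhibitor cords was 2.37 with an adjusted p of 0.027. Red cell precursors carry much transferrin receptor. Their heme synthesis enzyme ALAS2 averaged 3.72 TPM in uninjured inhibitor cords and 9.29 TPM in uninjured cords (log2 fold change -1.50, limma adjusted p = 0.0163, and -0.57 with an adjusted p of 0.357 under median-of-ratios scaling). Of 8 red cell markers tested in that comparison, 2 were called higher and 3, ALAS2 among them, lower. The shares of all genes were 7.39% and 51.1%. The red cell marker sums, mostly globins, ran the other way from ALAS2. The part of either in the TFRC values was not tested.

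The ratio of FTH1 to TFRC, each as TPM + 0.1, sets iron storage beside iron uptake within a library. It was 254, 286 and 213 in 4 dpi inhibitor cords, 63.2, 166 and 148 in 4 dpi control cords, 1533, 193 and 2319 in uninjured inhibitor cords, and 28.4, 80.5 and 65.4 in uninjured cords. TFRC was only 0.926 and 0.545 TPM in uninjured inhibitor libraries 5 and 7, so the added 0.1 affects their ratios. Both inhibitor groups lay above both groups without it, in every library. The ratio was 16.6-fold higher in uninjured inhibitor than in uninjured cords, 4.70-fold higher in 4 dpi inhibitor than in uninjured cords and 2.15-fold higher in 4 dpi inhibitor than in 4 dpi control cords. Each gave an exact permutation p of 0.1, the smallest possible, and 0.143 after adjustment. In 4 dpi control against uninjured cords it was 2.18-fold higher with overlapping libraries (exact p = 0.3), and in 4 dpi inhibitor against uninjured inhibitor cords 3.54-fold lower with overlap (exact p = 0.4).

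**Figure D3:**
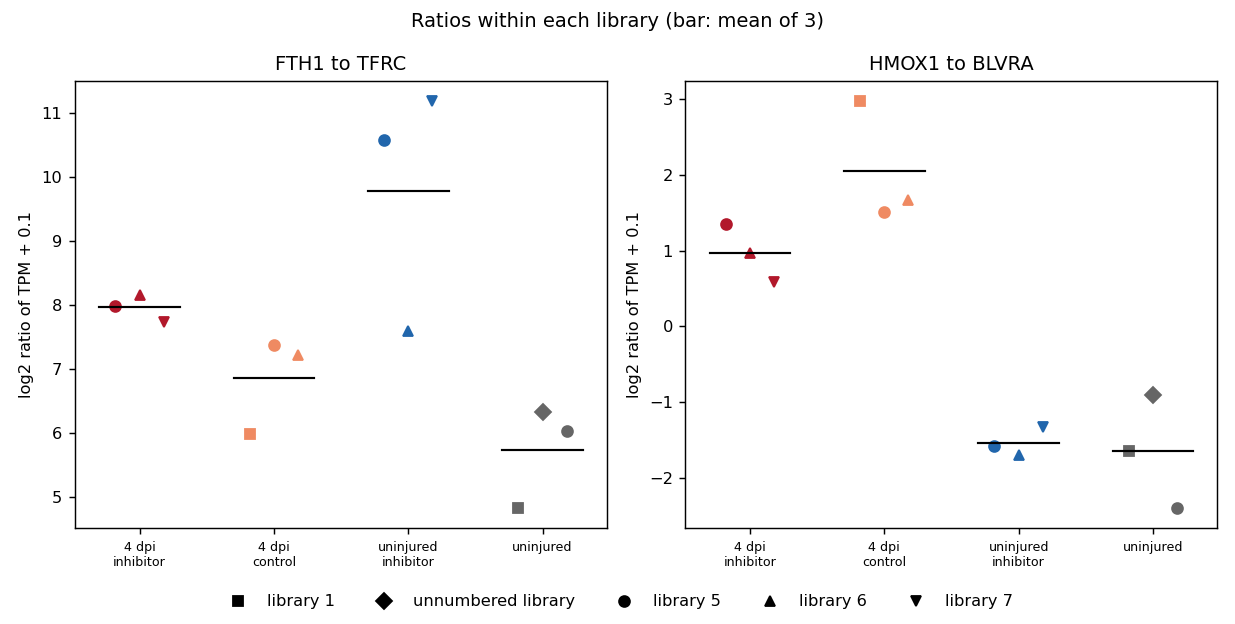
Ratios of FTH1 to TFRC and of HMOX1 to BLVRA within each library, as the log2 of the ratio of TPM + 0.1, by group, each point 1 library and each bar the mean of 3. The first ratio was highest in uninjured inhibitor libraries 7 and 5, and the second was above 0 in the injured libraries and below 0 in the uninjured ones.

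SLC40A1 (ferroportin, the iron exporter of vertebrate cells) had the widest range of TPM from lowest to highest library. It had 9.99, 11.6 and 5.78 TPM in 4 dpi inhibitor cords, 34.4, 8.38 and 8.82 TPM in 4 dpi control cords, 2.94, 10.3 and 0.564 TPM in uninjured inhibitor cords, and 60.8, 9.53 and 24.4 TPM in uninjured cords. Uninjured library 1 and 4 dpi control library 1 were the highest of all 12. SLC40A1 fell in uninjured inhibitor against uninjured cords (6.86-fold lower by the means, log2 fold change -3.14, SE 0.91, limma adjusted p = 0.0125, -2.04 relative to the median), although uninjured inhibitor library 6 was above the unnumbered uninjured library. The call was lost without uninjured library 1 (-2.48) and without uninjured inhibitor library 7 (-2.11), with adjusted p of 0.053 in both. Neuron, skeletal muscle and endothelium markers were called lower in the same comparison (7 of 11, 8 of 9 and 3 of 7). Myelin and ependymoglia markers were too (4 of 10 and 3 of 8), beside 51.1% of all genes. Under median-of-ratios scaling 4, 2, 1, 2 and 1 of these lists were called lower, beside 17.8% of all genes. With that scaling 2 endothelium and 2 ependymoglia markers were higher, beside 19.4% of all genes. Neuron markers summed to 2465 to 3511 TPM in uninjured inhibitor cords and 2437 to 13948 TPM in uninjured cords. Endothelium markers summed to 16.9 to 22.9 TPM in uninjured inhibitor cords and 20.4 to 86.7 TPM in uninjured cords, and muscle markers to 2914 to 7014 TPM in uninjured inhibitor cords and 8126 to 36164 TPM in uninjured cords. The neuron, endothelium and ependymoglia sums were highest in the libraries numbered 1 of the uninjured and 4 dpi control groups. SLC40A1 and TFRC were highest there too. Over all genes these libraries lay a median of 0.39 and 0.36 log2 units above their group means. The part of these cells in both genes was not tested.

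In the other comparisons SLC40A1 did not pass. The log2 fold change was -0.82 for 4 dpi control against uninjured (95% interval -2.79 to 1.15) and -1.46 for 4 dpi inhibitor against uninjured (95% interval -3.43 to 0.51). It was -0.64 for 4 dpi inhibitor against 4 dpi control (95% interval -2.61 to 1.33) and 0.03 there without 4 dpi control library 1. For 4 dpi inhibitor against uninjured inhibitor it was 1.68 (limma adjusted p = 0.312).

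The genes nearest to TFRC and SLC40A1 were picked for like levels over the same 12 libraries. Their low values in uninjured inhibitor cords follow from that choice. UCK1 (uridine-cytidine kinase 1) came first for TFRC with a root mean square difference of 0.27, against a spread of TFRC of 1.49. It averaged 4.15 TPM in 4 dpi inhibitor cords, 14.4 TPM in 4 dpi control cords, 1.96 TPM in uninjured inhibitor cords and 21.2 TPM in uninjured cords. NSDHL, an enzyme of cholesterol synthesis, came first for SLC40A1 (0.25, against a spread of 1.60) and averaged 3.45 TPM in 4 dpi inhibitor cords, 5.49 TPM in 4 dpi control cords, 1.65 TPM in uninjured inhibitor cords and 14.0 TPM in uninjured cords. RBFOX2 and MED25 came next for TFRC, and FBLN2 and JAZF1 for SLC40A1.

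SLC11A1 (NRAMP1, which moves iron and other metals out of the phagosomes of macrophages) had 14.7, 16.2 and 14.8 TPM in 4 dpi inhibitor cords, 42.5, 10.7 and 14.97 TPM in 4 dpi control cords, 5.62, 8.70 and 5.23 TPM in uninjured inhibitor cords, and 7.61, 21.0 and 2.36 TPM in uninjured cords. The unnumbered uninjured library reached the injured range, and it was also the uninjured library with the most HMOX1. Every 4 dpi inhibitor library was above every uninjured inhibitor one (log2 fold change 1.25, 95% interval -0.18 to 2.67, limma adjusted p = 0.303), as was the case for HMOX1 and TF, so that 3 of the 8 members were separated upward there, beside 29.6% of all genes.

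No comparison of SLC11A1 passed. The log2 fold change was 1.37 for 4 dpi control against uninjured (95% interval -0.05 to 2.80, limma adjusted p = 0.506) and 1.05 for 4 dpi inhibitor against uninjured (limma adjusted p = 0.204). Without the unnumbered uninjured library these were 2.13 (adjusted p = 0.096) and 1.81 (adjusted p = 0.027), so the second passed. CYBA, a subunit of the phagocyte NADPH oxidase, was the gene most like SLC11A1 (root mean square difference 0.45 against a spread of 1.03), followed by MMP19 and TNFRSF1B.

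TF (transferrin, the iron carrier of plasma, made in mammals by liver and, in the nervous system, by oligodendrocytes) had 241, 135 and 185 TPM in 4 dpi inhibitor cords, 206, 673 and 717 TPM in 4 dpi control cords, 71.6, 133 and 52.1 TPM in uninjured inhibitor cords, and 43.4, 239 and 358 TPM in uninjured cords. In both groups with a library numbered 1, that library was the lowest for TF, whereas it was the highest for TFRC and SLC40A1. No comparison passed. The log2 fold change was 1.58 for 4 dpi control against uninjured (95% interval 0.08 to 3.07, limma adjusted p = 0.455) and 0.66 without uninjured library 1.

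For 4 dpi inhibitor against 4 dpi control TF gave -1.35 (95% interval -2.84 to 0.14, limma adjusted p = 0.18). For uninjured inhibitor against uninjured it gave -0.97 (limma adjusted p = 0.234), and without uninjured library 1 it was -1.89 with an adjusted p of 0.016. Myelin markers summed to 994 to 1172 TPM in 4 dpi inhibitor cords, 1796 to 3630 TPM in 4 dpi control cords, 736 to 2408 TPM in uninjured inhibitor cords and 864 to 10995 TPM in uninjured cords. Liver and plasma markers summed to 14.2 to 31.8 TPM in 4 dpi inhibitor cords, 34.5 to 65.2 TPM in 4 dpi control cords, 22.9 to 25.7 TPM in uninjured inhibitor cords and 28.2 to 113 TPM in uninjured cords, and ALB was at 0 in 4 libraries. Their part in the TF values was not tested. The genes most like TF were ETNPPL (root mean square difference 0.50 against a spread of 1.24), KLHL38 and KLHL40, and both KLHL genes are known from skeletal muscle.

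**Figure D4:**
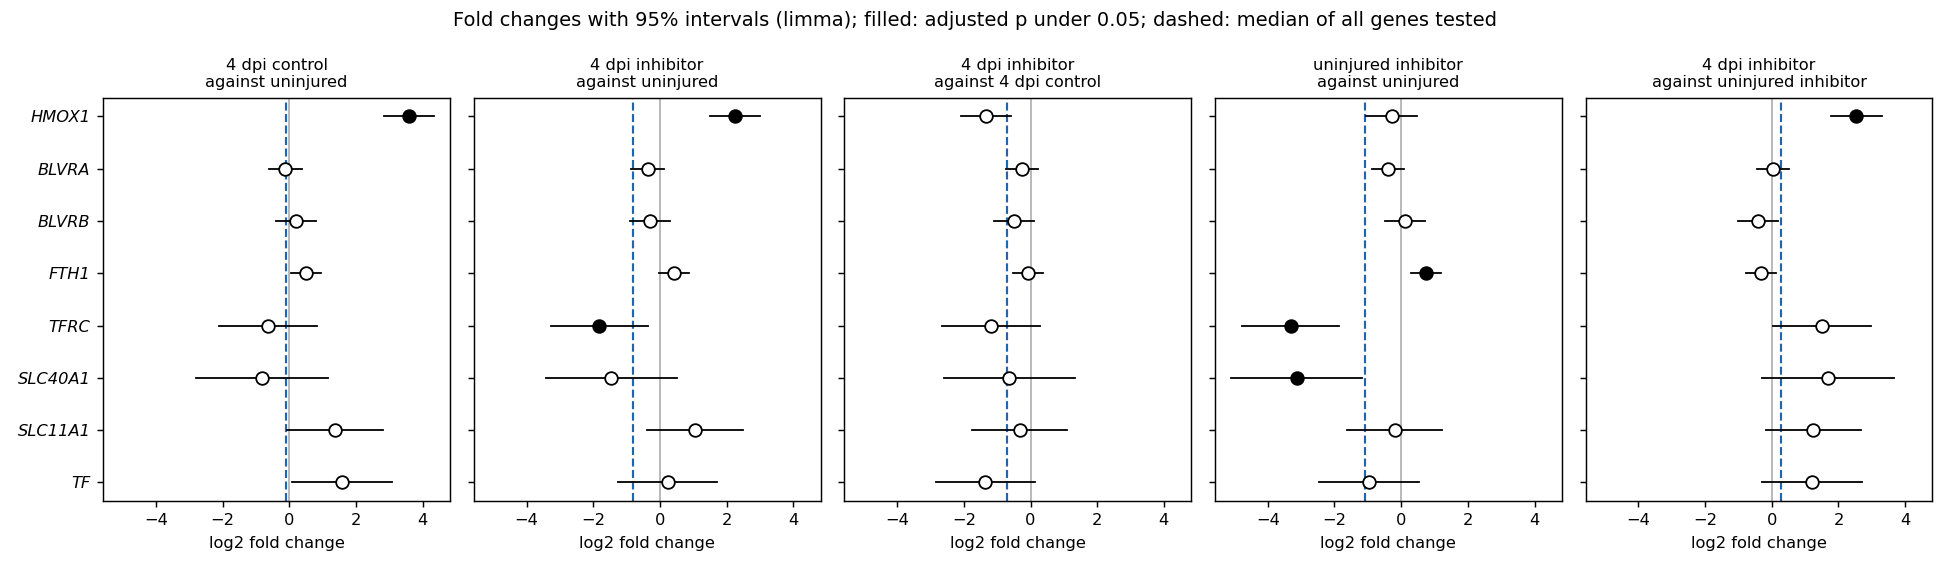
Log2 fold change (limma) of the 8 genes in 5 comparisons, with 95% intervals, filled where the adjusted p is under 0.05; the grey line marks 0 and the dashed line the median of all genes tested. HMOX1 lies right of the dashed line in the 3 comparisons of injured with uninjured cords, and TFRC and SLC40A1 lie furthest left in uninjured inhibitor against uninjured cords.

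Counted over the 8 genes, 1 was called higher and 0 lower in 4 dpi control against uninjured cords, beside 0.861% and 0.0434% of all genes. There 2 had no overlap upward (HMOX1 and FTH1), beside 7.85%. The 4 dpi inhibitor against uninjured comparison had 1 called higher and 1 lower, beside 9.39% and 31.2% of all genes. It had 2 separated upward and 2 downward, beside 12.6% and 41.8%. In uninjured inhibitor against uninjured cords 1 was called higher and 2 lower, beside 7.39% and 51.1% of all genes. There 1 was separated upward and 2 downward, beside 8.93% and 50.8%. Under median-of-ratios scaling 1 member was higher and 0 lower in 4 dpi control against uninjured cords (0.911% and 0.0651% of all genes). With that scaling 2 were higher and 0 lower in 4 dpi inhibitor against uninjured cords (16.6% and 12% of all genes), and 2 higher and 2 lower in uninjured inhibitor against uninjured cords (19.4% and 17.8%). Between 4 dpi inhibitor and 4 dpi control cords limma called none of the 8 (3.82% of all genes in either direction). At an unadjusted p under 0.05 only HMOX1 was lower there, beside 30% of all genes, and HMOX1 and TFRC were separated downward, beside 49% of all genes. Injury in the presence of the inhibitor (4 dpi inhibitor against uninjured inhibitor) gave 1 call, higher, beside 0.579% of all genes. None passed the interaction, which 0.0434% of all genes did, and at an unadjusted p under 0.05 TFRC was above 0 and FTH1 below 0, beside 6.58% and 1.59% of all genes.

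Of 67 other genes of heme and iron metabolism in 7 lists, 61 were in the table and 57 were tested. HPX (hemopexin, the plasma protein that binds free heme) was the only one called in 4 dpi control against uninjured cords. It had 44.0, 34.0 and 34.5 TPM in 4 dpi inhibitor cords, 104, 176 and 202 TPM in 4 dpi control cords, 25.6, 39.5 and 15.5 TPM in uninjured inhibitor cords, and 9.27, 40.1 and 17.9 TPM in uninjured cords. The 4 dpi control libraries lay above all others. HPX rose in 4 dpi control against uninjured cords (log2 fold change 3.03, limma adjusted p = 0.00694). It was lower in 4 dpi inhibitor than in 4 dpi control cords (-2.05, limma adjusted p = 0.0466), but under median-of-ratios scaling that adjusted p was 0.228. The median log2 fold change of the 57 genes was 0.15 in 4 dpi control against uninjured cords, beside -0.08 for all genes.

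In 4 dpi inhibitor against uninjured cords 4 of the 57 were called higher and 15 lower, beside 9.39% and 31.2% of all genes, with a median of -0.26 beside -0.81 for all genes. The higher ones included STEAP4 (a metalloreductase, 1.38), BACH1 (a repressor of HMOX1 that heme inactivates, 1.09) and FDX1 (a mitochondrial ferredoxin, 0.78). STEAP4 had 27.8, 28.4 and 27.6 TPM in 4 dpi inhibitor cords, against 9.59, 14.7 and 8.63 TPM in uninjured cords. The lower ones included ACO1 (iron regulatory protein 1, -2.01), NCOA4 (which delivers ferritin for degradation, -0.95) and 4 of 9 heme synthesis genes. Under median-of-ratios scaling 8 were higher and 6 lower, beside 16.6% and 12% of all genes. ACO1 remained lower there (-1.34, adjusted p = 0.0078), and NCOA4 was not called (-0.27, adjusted p = 0.283).

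In uninjured inhibitor against uninjured cords 3 of the 57 were called higher and 28 lower, beside 7.39% and 51.1% of all genes. Under median-of-ratios scaling 11 were higher and 7 lower, beside 19.4% and 17.8%. The median was -1.06 beside -1.10 for all genes. The higher ones included ISCU (the scaffold of iron-sulfur cluster assembly, 0.64) and GLRX5 (glutaredoxin 5, which acts in the same pathway, 0.51). Among the lower ones, FLVCR2 (a membrane transporter, -3.23) and SLC39A14 (ZIP14, which imports iron and zinc, -3.19) had changes close to those of TFRC and SLC40A1. FLVCR2 and SLC39A14 were low, with means of 0.378 and 1.08 TPM in uninjured inhibitor cords and 4.69 and 8.46 TPM in uninjured cords. Both remained lower under median-of-ratios scaling (-2.40 and -2.35), as did ACO1 (-2.27, and -1.33 under that scaling), while 7 of 9 heme synthesis genes were called lower as reported and 0 under that scaling. Between 4 dpi inhibitor and 4 dpi control cords 0 were higher and 4 lower (HPX and the heme synthesis genes UROD and ALAS1 among them), beside 3.82% of all genes in either direction, and 0 under median-of-ratios scaling. For 4 dpi inhibitor against uninjured inhibitor cords limma called none of the 57, beside 0.579% of all genes called higher. Their median log2 fold change there was 0.32, beside 0.28 for all genes.

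**Figure D5:**
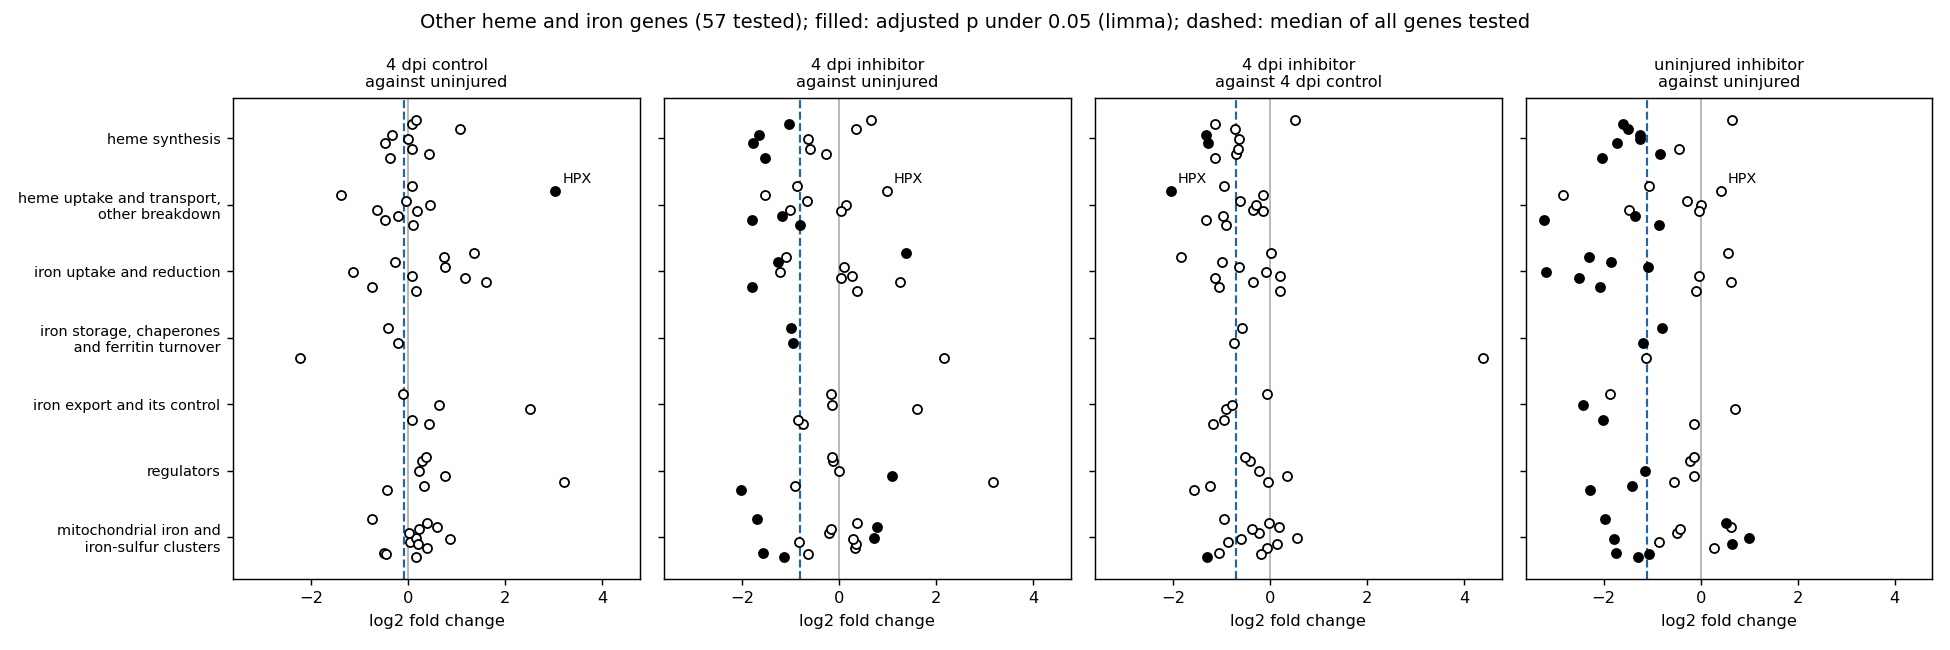
Log2 fold change (limma) of 57 other heme and iron genes by list in 4 comparisons, each point 1 gene, filled where the adjusted p is under 0.05; the dashed line marks the median of all genes tested. HPX is the only filled point in 4 dpi control against uninjured cords, and in uninjured inhibitor against uninjured cords most points lie left of 0, near the displaced median.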

How the data were processed

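Spinal cord RNA of 12 libraries was analysed. The authors assembled all reads de novo, assigned contigs to human proteins by best match, aligned with Bowtie 0.12.1, estimated counts with RSEM 1.1.6 and summed them per human symbol. The values used are the TPM they deposited, 15091 symbols that sum to 1000000 in each library, so depth is unknown and no counting interval is given. Date-like symbols were restored for 25 genes. Groups follow the labels.

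R 4.3.3 and limma 3.58.1 were used. The fit, on log2(TPM + 0.1), had 1 term per group over 12 libraries (8 residual degrees of freedom), empirical Bayes with a trend, two-sided. Genes with a mean under 1 TPM (1267) were left out. Ratios were compared by an exact permutation test. The named genes are the 8 members, the 3 genes nearest to each, and listed genes that passed, of which some are not reported here. The members and lists were chosen with earlier results of these data known. The fit was tested on simulated data in which no library was displaced as a whole, so that test says nothing on such displacement. Alternatives changed the pseudocount, the filter, the scaling, the variance model, the libraries and the threshold. One uninjured library has no number in its label. Correlations between the deviations of same-numbered libraries ran from -0.31 to 0.51, and since the only groups with 3 such pairs had -0.23 to 0.01, the numbers were not used to pair libraries.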

Additional observations from a re-analysis of the deposited data

How the results depend on the processing

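Of 1048 values of a member under an alternative, 943 kept their direction and side of the threshold, 42 newly passed, 23 no longer passed and 40 changed sign. None of the 154 values of the 7 calls changed sign, and 131 of them still passed. In 4 dpi control against uninjured cords 1 member was called as reported, 5 with library weights, 2 with the replicate block and 0 with the compared groups only. In 4 dpi inhibitor against uninjured cords 2 were called as reported, 5 with library weights, 1 with no filter on low values, no variance trend or without both libraries numbered 1, and 1 to 3 with 1 library left out. Between 4 dpi inhibitor and 4 dpi control cords 0 were called as reported, 1 at an adjusted p under 0.1, with the compared groups only or with a mean of at least 5 TPM, 5 with library weights, and 0 to 1 with 1 library left out. In uninjured inhibitor against uninjured cords 3 were called as reported and 6 with library weights. Over all alternatives the limma adjusted p there reached 0.0839 for FTH1, 0.053 for SLC40A1 and 0.0234 for TFRC. Only the TFRC call was thus kept throughout. For 4 dpi inhibitor against uninjured inhibitor cords 1 was called as reported, 2 with the replicate block or the compared groups only, 7 with library weights, and 0 to 2 with 1 library left out. For the interaction 0 were called as reported and 5 with library weights. Library weights, whose estimation did not converge fully, called 4984 to 10352 of all 13824 genes. Shares of all genes are not given here for the other alternatives, so these counts do not show a change particular to the members. The replicate numbers were not taken to pair the libraries: the deviations of the 3 same-numbered pairs of 4 dpi inhibitor and uninjured inhibitor libraries correlated at -0.23 to 0.01. The 2 pairs of 4 dpi control and uninjured libraries correlated at 0.51 (number 1) and 0.20 (number 5), and the unnumbered library fills a block alone.

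Signs changed as follows, in log2 fold changes, and none of these values as reported had passed. In 4 dpi inhibitor against uninjured cords median-of-ratios scaling gave BLVRA 0.31 and BLVRB 0.38, and TF was -0.67 with library weights, -0.44 with the replicate block, -0.69 without both libraries numbered 1 and -0.69 to 0.83 with 1 library left out. Between 4 dpi inhibitor and 4 dpi control cords that scaling gave BLVRA 0.38, BLVRB 0.14, FTH1 0.56 and SLC11A1 0.32. There the replicate block gave SLC40A1 0.55 and SLC11A1 0.30, and leaving out both libraries numbered 1 gave 0.025 and 0.26. With 1 library left out FTH1 was -0.23 to 0.026, SLC40A1 -0.99 to 0.025 and SLC11A1 -0.73 to 0.26. In uninjured inhibitor against uninjured cords the scaling gave HMOX1 0.66, BLVRA 0.55 and SLC11A1 0.74, library weights HMOX1 0.21 and SLC11A1 0.94, and the replicate block HMOX1 0.49, BLVRB -0.11 and SLC11A1 1.36. With 1 library left out HMOX1 was -0.58 to 0.048, BLVRB -0.0042 to 0.35 and SLC11A1 -0.98 to 0.57, and the log2 difference in the HMOX1 to BLVRA ratio was -0.26 to 0.49, 0.11 as reported. For 4 dpi inhibitor against uninjured inhibitor cords BLVRA was -0.24 under the scaling, -0.066 with library weights and -0.10 to 0.20 with 1 library left out. For the interaction BLVRA was -0.17 under the scaling, TF 0.22 with library weights and SLC11A1 0.42 without both libraries numbered 1, with SLC11A1 at -0.88 to 0.67 and TF at -0.99 to 0.54 with 1 library left out. Except for the scaling and the libraries left out, the cause was not tested. TPM without counts give no depth, so the precision of low members such as TFRC rests on the spread of 3 libraries.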
